A study of Gallus gallus with 6 samples.

Results

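The genes ELOVL1, ELOVL2, ELOVL4, ELOVL5, ELOVL7, FADS1 and FADS2 encode fatty acid elongases and desaturases, and their open chromatin was examined in abdominal fat of chickens. ATAC-seq was used, which marks DNA free of nucleosomes by letting the Tn5 transposase cut it. Libraries came from 3 birds of the line labelled FL and 3 birds of the line labelled LL of the NEAUHLF population (no bird was used for 2 libraries, according to the design text). NEAUHLF is known as a broiler population selected for high and for low abdominal fat. No age, sex or treatment is given in the labels, and both lines were sampled as whole abdominal fat tissue. The 7 genes were taken from a list of names, and peaks were assigned to a gene where the summit lay inside it or within 50 kb of it. All 7 were found among 17839 protein-coding genes of the RefSeq table of the assembly GRCg7b. Their windows held 256 of the 225668 peaks of all 6 libraries. These peaks lay in 98 of 100148 union regions, which join peaks of different libraries that overlap by at least 1 bp.

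Long polyunsaturated fatty acids such as arachidonic acid and docosahexaenoic acid are made from dietary linoleic and linolenic acid. Desaturases of the endoplasmic reticulum insert double bonds and elongases add carbon units, in alternating steps. In mammals, FADS2 carries out the first desaturation and FADS1 a later one. ELOVL5 elongates the earlier polyunsaturated intermediates, ELOVL2 the later ones, and ELOVL4 makes very long chains. ELOVL1 and ELOVL7 are known in mammals mainly for saturated and monounsaturated very long chains, so the family is broader than polyunsaturated synthesis. Adipose tissue stores these acids, while the liver is known as their main place of synthesis.

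A gene end was counted as occupied in a library where any base of a peak lay within 1 kb of either annotated end of the gene. The gene table used here has no strand and no exons, so the start and the end of transcription were not told apart, and positions inside a gene were not split into exons and introns. The lower end is the one with the smaller coordinate. In bulk tissue, fewer cells with an open site and less opening per cell cannot be told apart. The fold enrichment is the authors' value for a peak against its local background, and it describes a peak within its own library. A percentile is the rank of a peak by −log10 q within its library's list, with low values for the strongest peaks. The strongest peak at an end is the one with the highest −log10 q.

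The peak lists differed in length more within a line than between the lines. They held 58060, 32066 and 23188 peaks in the FL libraries and 73410, 23316 and 15628 peaks in the LL libraries. Of all coding genes, 69.5%, 56.6% and 54.7% had an occupied end in the FL libraries, against 72.3%, 48.6% and 41.5% in the LL libraries. The third LL library, with the shortest list, also had the fewest occupied ends. Of 9 adipocyte marker genes, 9, 7 and 7 had an occupied end in the FL libraries and 9, 9 and 6 in the LL libraries. Of 7 hepatocyte markers, 2, 1 and 1 did so in the FL libraries and 3, 3 and 1 in the LL libraries. ALB, TTR, FGB and AHSG had no end peak in any library, while APOA1 was occupied in all 6. SERPINC1 was occupied in the first FL library and the first and second LL libraries, and F2 in the first and second LL libraries. Of 6 fibroblast markers, 6, 3 and 4 were occupied in the FL libraries and 6, 3 and 3 in the LL libraries.

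Of the 7 genes, 6, 6 and 6 had an occupied end in the FL libraries, against 5, 3 and 1 in the LL libraries. All 3 FL libraries gave a share of 85.7%, and the LL libraries averaged 42.9% ± 28.6 (SD, n = 3). The lines did not overlap in this share, but the first LL library fell short of the FL libraries by ELOVL2 alone. The pattern of ELOVL2 was known when it was chosen, and with ELOVL2 left out the first LL library equals each FL library. The difference in share was 42.9 percentage points, against 6.09 for all coding genes. Without the third LL library these differences were 28.6 and -0.216 points, without the first LL library 57.1 and 15.2, and with only peaks of at least 178 bp 33.3 and 0.811. The genes were chosen with earlier results of these data known, so no test of this share is given. The ends of 6 of the 7 genes were occupied in all 3 FL libraries, where 48.5% of coding genes were. Only ELOVL1, 1 of the 7, was occupied in all 3 LL libraries, where 38.5% of coding genes were. In 5 genes more FL than LL libraries were occupied, as in 22% of coding genes, and in 0 genes more LL libraries, as in 9.09%. The difference was at least 2 libraries in ELOVL2, ELOVL4 and ELOVL7, as in 6.21% of coding genes, and 0 of the 7 genes differed so towards LL, as in 1.08%. With the lists set to equal length, the FL libraries had 4, 5 and 5 occupied genes and the LL libraries 3, 3 and 1. The difference in share was then 33.3 points, against 5.445 for all coding genes. The difference of at least 2 libraries was found in ELOVL5 and ELOVL7, no longer in ELOVL2 and ELOVL4. Of all 17839 coding genes 999 had it, against 1107 in the main count. With the distance set to 2 kb it was found in ELOVL2 and ELOVL4 but not in ELOVL7, and in 1106 coding genes. With only the longer peaks it was again found in ELOVL2 and ELOVL4 but not in ELOVL7, and in 589 coding genes.

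Marker lists of other cell types also differed between the libraries. Of 6 myeloid markers, 5, 5 and 4 had an occupied end in the FL libraries and 6, 2 and 2 in the LL libraries. Among them SPI1 and CD74 had end peaks in every FL library and only the first LL library, the pattern of ELOVL4 and ELOVL7. The other myeloid markers did not have it. IRF8 and LYZ were occupied in all 6 libraries, MARCO in the first and second FL and the first LL library. CSF1R was occupied in the first LL library only. The pattern of SPI1 and CD74 was also found at PTGES and NR1H3, which are described below. With the first LL library left out, 920 of 17839 coding genes were occupied in every FL library and in no remaining LL library. Of 6 lymphocyte markers, 3, 3 and 3 were occupied in the FL libraries and 3, 3 and 1 in the LL libraries. Of 5 skeletal muscle markers, 3, 3 and 1 were occupied in FL and 3, 1 and 1 in LL. Their part in the occupancy of the 7 genes was not tested.

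**Figure D1:**
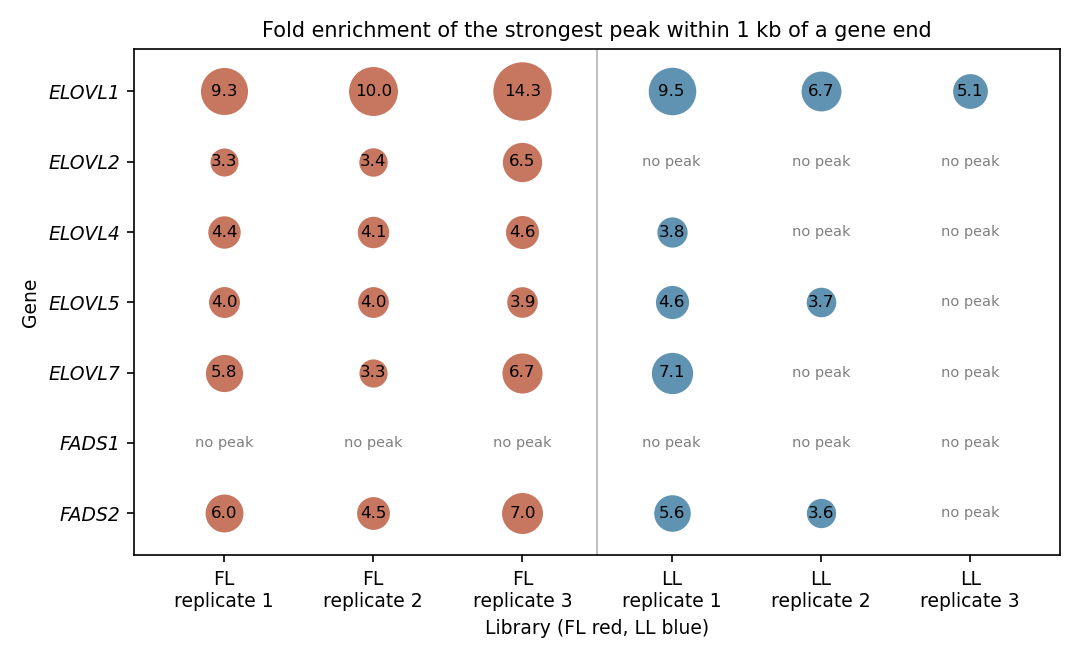
Fold enrichment of the strongest peak within 1 kb of an end of each gene (rows) in each library (columns, FL red, LL blue); the area of a circle follows the printed fold. ELOVL2 has peaks in the 3 FL libraries only, ELOVL1 in all 6 libraries, and FADS1 in none. For ELOVL7, the circles of the first FL library (5.79) and the first LL library (7.14) belong to a region inside the gene. That region reaches within 1 kb of the end but does not lie over it.

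ELOVL2, which in mammals elongates the precursors of docosahexaenoic acid, was the only one of the 7 genes with end peaks in every library of a line and in none of the other. The gene lies at chromosome 2, 62874967 to 62916414 (gene ID 420858). Its lower end carried a peak, in the region 62874744 to 62875149, in 3 of 3 FL libraries and 0 of 3 LL libraries. Among all coding genes 49 (0.275%) had this pattern, and 8 (0.0448%) the opposite one. These counts were 10 and 12 with only peaks of at least 178 bp, 82 and 141 without the first FL library, and 920 and 9 without the first LL library. The fold enrichment was 3.30, 3.39 and 6.48 in the FL libraries, with −log10 q of 7.0, 4.07 and 11.1, and no peak was called in the LL libraries. This pattern of ELOVL2 was known when the gene was chosen, so it is a description and carries no test.

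The FL peaks at ELOVL2 were sharply placed but weak to moderate. Their summits lay at -22, -26 and -26 bp from the lower end, where negative values point away from the gene. The peaks were 285, 264 and 119 bp wide, the last being shorter than any peak of the LL lists. They ranked at percentile 70.3, 67.4 and 42.8 of their lists. Their summits were covered by 31, 19 and 22 fragments as solved from the deposited values. The nearest summits of the LL libraries lay at -3029, -6569 and -6684 bp. No library of either line had a summit inside the gene body of ELOVL2, which spans 41.4 kb. A long non-coding RNA gene, LOC121109719, spans this end at chromosome 2, 62870673 to 62900710, and the peak cannot be assigned to either gene from position alone.

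By fold, the lowest FL peak at ELOVL2 (3.30, in the first FL library) was within the range of the LL lists. Peaks with a fold below 3.30 made up 40.3%, 35.6% and 3.53% of the FL lists and 26.9%, 35.7% and 63.2% of the LL lists. Where the background was that of the whole genome, the lowest fold called was 2.27, 2.71 and 3.41 in the FL libraries and 2.20, 2.65 and 2.36 in the LL libraries. The lowest summit coverage called there was 20, 15 and 10 fragments in the FL libraries and 19, 17 and 22 in the LL libraries. The ELOVL2 peak with the fewest fragments, 19 in the second FL library, was thus below the lowest of the third LL library. It equalled that of the first LL library and was above that of the second. Coverage is not scaled to background, whose lowest value was 4.90 in the second FL library and 8.10, 5.80 and 8.73 in the LL libraries. By fold, the same peak, at 3.39, was above the lowest value called there in each LL library. The lists do not give the local background at the ELOVL2 end in the LL libraries, so a signal under their thresholds was not measured. With the lists set to equal length, the ELOVL2 peak remained in the third FL library only, and at a −log10 q of at least 5 in the first and the third. With only peaks of at least 178 bp it remained in the first and second FL libraries.

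Close to ELOVL2, other sites did not follow this split. The end of SMIM13, a small membrane protein gene, at chromosome 2, 62867895 to 62868756, was called in all 6 libraries. Its fold enrichment was 9.22, 7.13 and 11.3 in the FL libraries and 12.8, 6.40 and 4.34 in the LL libraries. The end of NEDD9, a scaffold protein gene, at 62849006 to 62849949, had a fold of 4.84 in the first FL library and 4.99, 3.57 and 2.78 in the LL libraries. In all, the ELOVL2 window held 10, 3 and 4 peaks in the FL libraries and 14, 2 and 3 peaks in the LL libraries.

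Among the other 48 coding genes with the same occupancy, those nearest to ELOVL2 in the percentile of the end peak were NECAB2, ADAMTS20 and CBLN1. NECAB2, a neuronal calcium-binding protein gene, had folds of 3.39, 3.21 and 4.78 in the FL libraries. ADAMTS20, a secreted metalloprotease gene, had 3.38, 3.37 and 5.27, and shared its peak with LOC112533224. CBLN1, a synaptic organiser gene, had 3.53, 2.64 and 6.19, and shared its peak with LOC107054281. The mean absolute difference in percentile from ELOVL2 over the 3 FL libraries was 10.3, 10.4 and 12.02 points. Of 7 neuronal marker genes, 3, 2 and 1 had an occupied end in the FL libraries and 3, 0 and 0 in the LL libraries. None of the 7 had the pattern of ELOVL2. SYT1 and NEFL were occupied in the first and second FL libraries only, and SNAP25 in the third FL library only. GAP43 and RBFOX3 were occupied in the first LL library only, STMN2 in the first library of each line, and NEFM in none. The part of neuronal genes in the ELOVL2 pattern was not tested.

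ELOVL4 makes very long chains in mammals and is best known from the retina and skin. The gene lies at chromosome 3, 78964526 to 79000526 (gene ID 421850). Its lower end had a fold enrichment of 4.39, 4.14 and 4.57 in the FL libraries and 3.84 in the first LL library, and no peak in the other two LL libraries. The 3 FL folds lay close together, and the single LL fold was below all of them, but the lists differed in fold. Median folds were 3.60, 3.56 and 5.18 in the FL libraries and 4.35 in the first LL library. The peaks of the third FL and the first LL library were thus both below the median of their list. By −log10 q the LL peak, at 9.80, lay among the FL peaks, at 15.4, 8.22 and 5.31. Its summit was covered by 34 fragments, against 48, 29 and 15 in the FL libraries. These peaks ranked at percentile 37.8, 30.5 and 69.8 in the FL libraries and 73.5 in the LL library.

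Sites around ELOVL4 were shared by both lines. The end of TTK, a mitotic kinase gene, at 78930307 to 78931147, had folds of 16.9, 8.71 and 16.4 in the FL libraries and 18.8, 6.79 and 4.36 in the LL libraries. A region outside genes at 79009467 to 79010043, beyond the upper end, had folds of 5.69, 3.95 and 6.72 in the FL libraries and 8.46, 4.64 and 3.00 in the LL libraries. An end of SH3BGRL2 was called in all 6 libraries as well. The second and the third LL library had called peaks on both sides of ELOVL4 and none at its end. Calls at those sites do not tell whether a weaker signal was present at the end, since signal under the threshold was not measured.

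ELOVL5, the elongase of the earlier polyunsaturated intermediates, lies at chromosome 3, 87928839 to 87966482 (gene ID 428646). Its lower end had a fold of 4.0, 3.97 and 3.93 in the FL libraries and 4.61 and 3.67 in the first and second LL libraries. The values of the lines overlapped, and only the third LL library lacked the peak. A region inside the gene, at 87949348 to 87949813, was called in 2 FL libraries (folds 4.86 and 9.02) and in 3 LL libraries (folds 6.21, 4.27 and 2.67).

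The ground below ELOVL5 carried several regions outside genes. That at 87900484 to 87901841 was called in all 6 libraries, with folds of 5.33, 4.34 and 8.13 in FL and 6.45, 4.31 and 3.19 in LL. Those at 87912159 to 87912687 and at 87917554 to 87918513 were called in the first and the third FL library and in all 3 LL libraries. Beyond the upper end, a region at 87975899 to 87977226 was called in all 6 libraries, with folds of 6.41, 3.26 and 5.59 in FL and 10.1, 5.95 and 4.07 in LL. The third LL library had peaks at these 4 regions outside genes near ELOVL5, while the end of ELOVL5 was not called. A signal under the threshold at that end was not measured.

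FADS2, the first desaturase of the pathway, and FADS1 are neighbours on chromosome 5, 3010 bp apart, and their windows share 17 regions. FADS2 lies at 16327541 to 16345374 (gene ID 423122). Its lower end, which faces FADS1, had a fold of 6.02, 4.51 and 7.03 in the FL libraries and 5.61 and 3.59 in the first and second LL libraries. Its summit was covered by 110, 40 and 43 fragments in the FL libraries and by 117 and 39 in those LL libraries. The lines overlapped in fold, and the third LL library had no peak there.

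FADS1, at 16311338 to 16324530 (gene ID 423120), was the only one of the 7 genes with no peak within 1 kb of an end in any library, a state shared by 22.8% of coding genes. It was not without open chromatin. A region inside the gene, at 16320282 to 16322004, was called in all 6 libraries. Its fold was 7.15, 3.79 and 8.14 in the FL libraries and 7.82, 2.67 and 2.92 in the LL libraries, so that the lines overlapped. Between FADS1 and FADS2 the lower end of FADS2 thus split the libraries differently from this site inside FADS1. Further along, a region outside genes at 16368066 to 16368840 and the end of FTH1, the ferritin heavy chain gene, at 16386367 to 16387616 were called in all 6 libraries.

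ELOVL1, which makes very long saturated and monounsaturated chains for sphingolipids in mammals, had the strongest end of the family. It lies at chromosome 8, 19371189 to 19386163 (gene ID 424564). The upper end was called in all 6 libraries, as in 35.7% of coding genes, with folds of 9.27, 10.02 and 14.3 in FL and 9.46, 6.65 and 5.07 in LL. The peak ranked at percentile 1.99, 0.54 and 0.50 of the FL lists and 3.38, 2.11 and 4.13 of the LL lists. It was thus among the strongest peaks of every list. The folds of the lines overlapped, while the percentiles, taken in lists of unlike length, did not.

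Neighbouring genes of ELOVL1 had called ends in both lines. The end of MED8, a Mediator subunit gene, at 19394571 to 19396156, was called in all 6 libraries. The end of TIE1, an endothelial receptor gene, had a fold of 4.04 in the first FL library and 7.03, 3.18 and 2.37 in the LL libraries. Of 7 endothelial markers, which include TIE1, 6, 1 and 1 had an occupied end in the FL libraries and 7, 2 and 1 in the LL libraries. TIE1 itself was the only marker occupied in the third LL library. All were occupied in the first LL library, and all but PECAM1 in the first FL library. Besides these, KDR was occupied in the third FL, ERG in the second FL and VWF in the second LL library. The part of endothelial genes in the pattern at TIE1 was not tested.

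ELOVL7, another elongase of saturated very long chains in mammals, lies on the sex chromosome Z at 19427103 to 19459381 (gene ID 431579). The region over its upper end, at 19459054 to 19459498, had folds of 4.77, 3.33 and 6.73 in the FL libraries and 4.18 in the first LL library. A neighbouring region inside the gene, at 19457498 to 19458401, was called in 2 FL and 3 LL libraries. Its folds were 5.79 and 3.20 in the first and second FL libraries and 7.14, 3.26 and 2.74 in the LL libraries. In the first FL and the first LL library its peak reached within 1 kb of the end. There it was the strongest end peak, so the circle plot of fold enrichment shows it. With the distance set to 500 bp, ELOVL7 was still occupied in 3 FL libraries and 1 LL library. The second and the third LL library had an open site near this end but not within 1 kb of it. With the distance set to 2 kb they counted as occupied. The sex of the birds is not given. The Z chromosome held 3658, 2495 and 1530 peaks in the FL libraries and 4492, 1472 and 1020 in the LL libraries, and the W chromosome 42, 61 and 29 in FL and 32, 24 and 25 in LL. The part of sex in the ELOVL7 pattern was not tested. Beyond the lower end, the end of DEPDC1B at 19425004 to 19425917 was called in all 6 libraries, with folds of 16.2, 8.86 and 11.2 in FL and 16.4, 6.58 and 4.43 in LL.

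**Figure D2:**
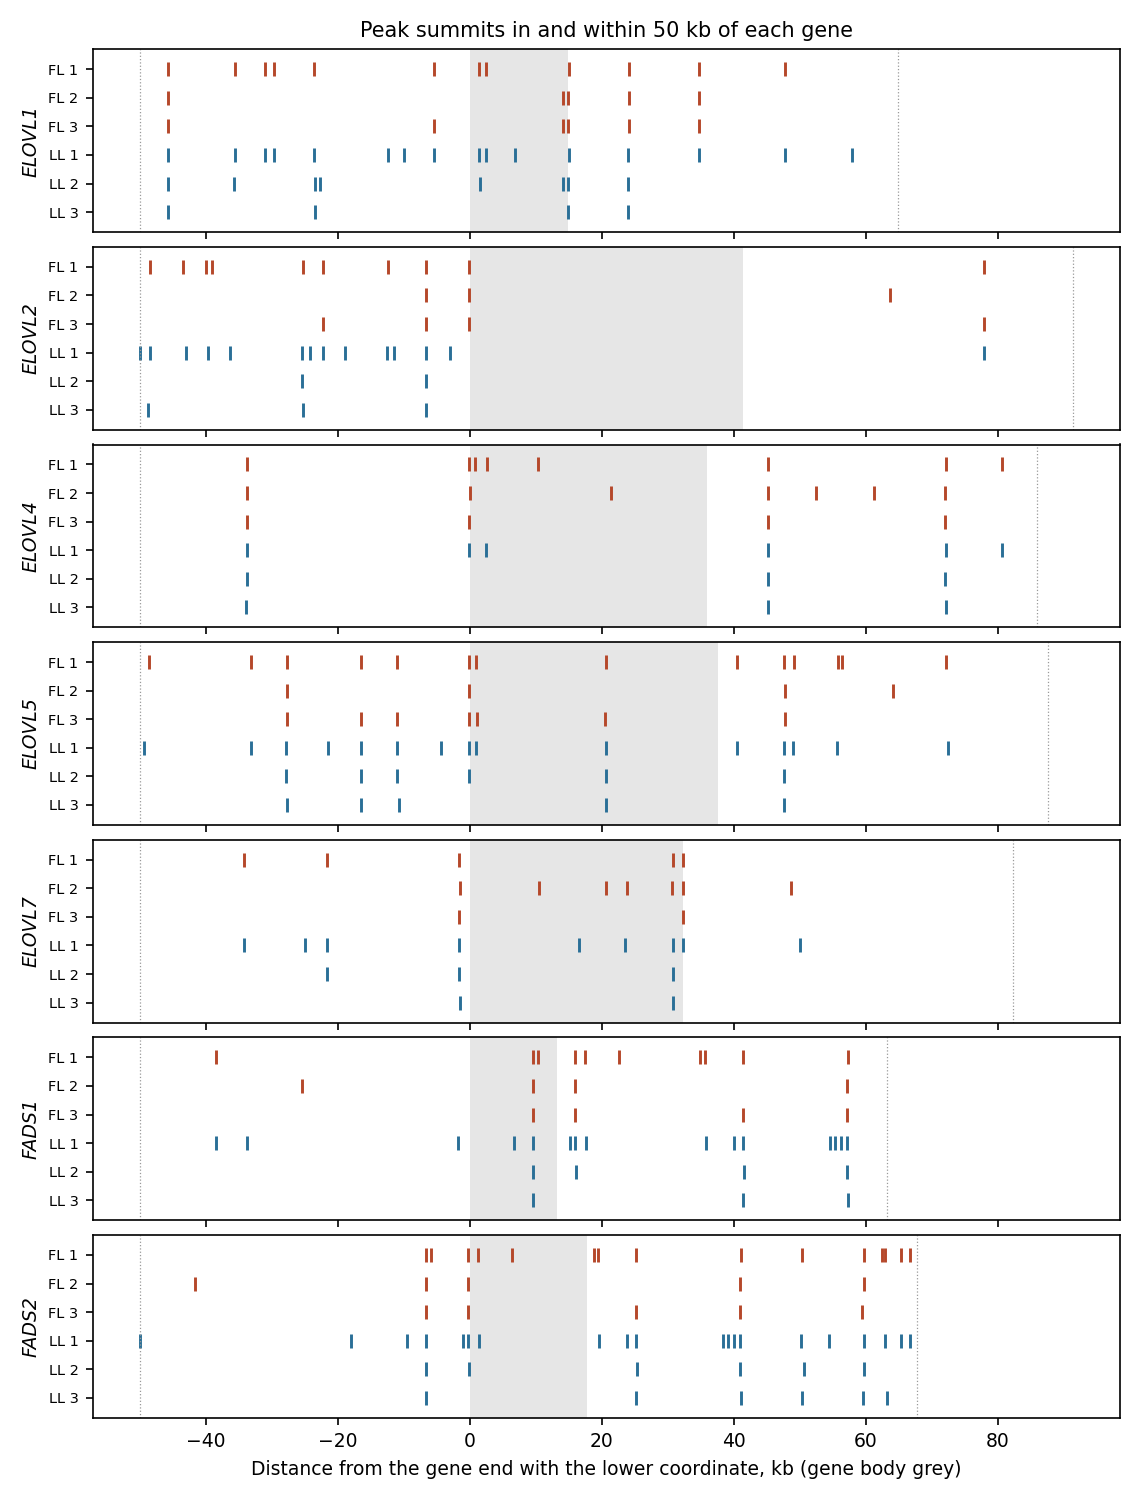
Peak summits in and within 50 kb of each gene (panels), by library (rows, FL red above LL blue); the x axis is the distance in kb from the lower end of the gene, and grey marks the gene body. The ELOVL2 end carries summits in the 3 FL rows and none in the LL rows, with none inside the gene body in any row.

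Over all 98 regions, the split seen at the ends of the genes was not a general feature of their surroundings. Of the 98, 13 regions lay at an end of the gene itself. Of these, 8 were called in more FL than LL libraries and 3 in more LL libraries. The region inside ELOVL7 at 19457498 to 19458401, called in 2 FL and 3 LL libraries, is among the latter. Of the 13, 2 were called in the first FL library alone and 1 in the first LL library alone. The split was not counted over the gene-end regions of all coding genes, so the counts for these 13 stand without a comparison. Of all 98, 26 (26.5%) were called in more FL libraries and 38 (38.8%) in more LL libraries, against 32.5% and 35.7% of all regions. The first LL library, with the longest list, alone held 25 of the 98 (25.5%), against 22.9% of all regions. Only the ELOVL2 end was called in all 3 FL libraries and in no LL library, 1 of 98 regions against 0.209% of all regions. The opposite pattern was found in 0 of 98, against 0.0849% of all regions. Regions called in all 6 libraries numbered 13 (13.3%), against 7.59% of all regions.

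The number of peaks per window did not separate the lines. In sum, the windows held 1.12, 0.967 and 1.21 peaks per 1000 peaks of the list in the FL libraries and 1.10, 1.20 and 1.47 in the LL libraries, which overlap. For each coding gene with a mean of at least 1 peak per library, limma was fitted to log2(peaks + 0.5) less the log2 of the list length. Of 17072 genes tested, 0% were higher and 0% lower in FL after Benjamini-Hochberg adjustment, and 555 had an unadjusted p under 0.05. All 7 genes entered the fit, and their adjusted p was 0.999 in each case. The median of all genes was -0.11 on the log2 scale, FL over LL, and that of the 7 genes -0.29.

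The genes differed in direction, and for each of them the library values of the lines overlapped. FADS2 averaged 0.210 ± 0.0514 peaks per 1000 in the FL libraries, against 0.305 ± 0.0691 in the LL libraries (SD, n = 3 each), with a log2 difference of -0.53 and a 95% interval of -1.35 to 0.30. ELOVL1 averaged 0.207 ± 0.0514 in FL and 0.272 ± 0.0642 in LL, with -0.40 and an interval of -1.23 to 0.44. ELOVL4 was the only gene with a positive log2 difference, at 0.176 ± 0.0404 in FL and 0.134 ± 0.0553 in LL, with 0.39 and an interval of -0.57 to 1.34. The other genes had log2 differences of -0.10 (ELOVL2), -0.29 (ELOVL5), -0.13 (ELOVL7) and -0.30 (FADS1). For ELOVL7 the linear means ran the other way, at 0.130 ± 0.0763 peaks per 1000 in FL and 0.126 ± 0.00332 in LL. The exact two-sided permutation p of the single genes ran between 0.2 for FADS2 and 1 for ELOVL7, and 3 libraries against 3 cannot go below 0.1. The interval of each of the 7 genes reached beyond 1 log2 unit in 1 direction. Under alternative settings the sign turned for ELOVL1, ELOVL2, ELOVL5, ELOVL7 and FADS1.

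**Figure D3:**
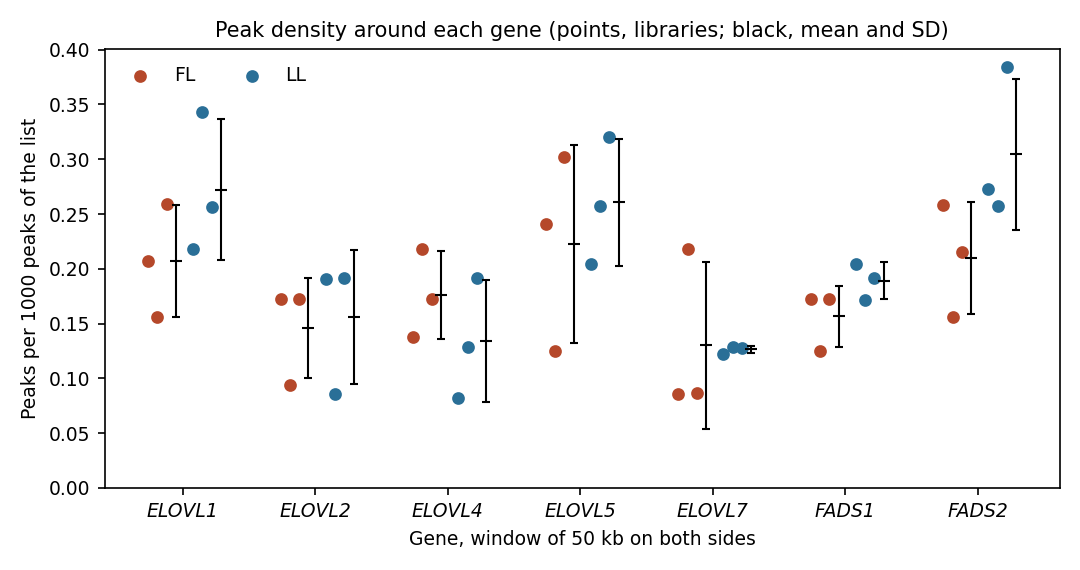
Peaks in and within 50 kb of each gene per 1000 peaks of the library's list (y axis), with a point per library (FL red, left of LL blue) and the mean with its SD in black (n = 3 each). FADS2 has the largest distance between the means, 0.210 in FL and 0.305 in LL.

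Ends of the other genes of the pathway were followed in 6 lists, with 70 genes found in the table. Of these, 35 (50%) were occupied in all 6 libraries, against 35.7% of coding genes. More FL than LL libraries were occupied in 18 (25.7%), against 22% of coding genes, and more LL libraries in 5 (7.14%), against 9.09%. The ends of 2 of the 70 (2.86%) were occupied in at least 2 more FL than LL libraries, against 6.21% of coding genes, and 0 in at least 2 more LL libraries. No test of the difference between these lists and the 7 genes was made.

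Among 7 other elongases and desaturases, 6, 5 and 3 ends were occupied in the FL libraries and 5, 3 and 2 in the LL libraries. ELOVL6, which elongates palmitate, was occupied in all 6, with folds of 3.79, 3.04 and 4.59 in FL and 5.12, 2.72 and 2.73 in LL. DEGS1, a sphingolipid desaturase, was occupied in all 6 too, with 9.76, 5.02 and 9.07 in FL and 10.8, 4.85 and 3.31 in LL. ELOVL3 had no end peak in any library.

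The rest of the elongation complex and its electron supply was occupied almost throughout, with 9, 9 and 9 of 10 genes in the FL libraries and 9, 9 and 7 in the LL libraries. The reductase HSD17B12 and the dehydratase HACD3, which act in the elongation cycle, were occupied in all 6. So were CYB5A, the cytochrome that hands electrons to desaturases, and CYB5R1. HSD17B12 had folds of 10.8, 7.24 and 14.6 in FL and 11.1, 5.12 and 3.32 in LL. TECRL had no end peak in any library, and TECR, the enoyl reductase that closes the cycle, was not analysed here.

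Genes that activate and incorporate polyunsaturated fatty acids were occupied in 11, 8 and 8 of 13 cases in the FL libraries and 11, 9 and 6 in the LL libraries. LPCAT3, which places polyunsaturated chains in phospholipids, had folds of 9.82, 5.99 and 9.19 in FL and 13.1, 7.31 and 5.47 in LL. The acyl-CoA synthetases ACSL3 and ACSL4 and the transporter SLC27A1 were occupied in all 6 as well. ACSL5 and SLC27A2 had no end peak in any library. Genes of peroxisomal shortening, which ends docosahexaenoic acid synthesis in mammals, were occupied in 13, 12 and 13 of 13 cases in FL and 13, 13 and 10 in LL. SCP2, PEX2, HSD17B4 and PEX13 were occupied in all 6 and had the best percentiles in the library where each ranked poorest.

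Genes of eicosanoid and related mediator synthesis were occupied in 9, 5 and 8 of 12 cases in the FL libraries and 10, 5 and 5 in the LL libraries. PTGES, a prostaglandin E synthase gene, had folds of 2.78, 3.16 and 2.83 in the FL libraries and 5.01 in the first LL library. EPHX2 and LTA4H were occupied in all 6, as were PTGS2 and PLA2G4A, which share the same peak. ALOX5AP and LTC4S had no end peak in any library. Of 15 regulators, 14, 12 and 11 were occupied in the FL libraries and 14, 11 and 8 in the LL libraries. NR1H3, the nuclear receptor LXR alpha, had folds of 2.89, 2.33 and 3.38 in the FL libraries and 3.47 in the first LL library. The SREBP-processing genes MBTPS1, MBTPS2 and SCAP and the receptor PPARD were occupied in all 6, and HNF4A in none.

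**Figure D4:**
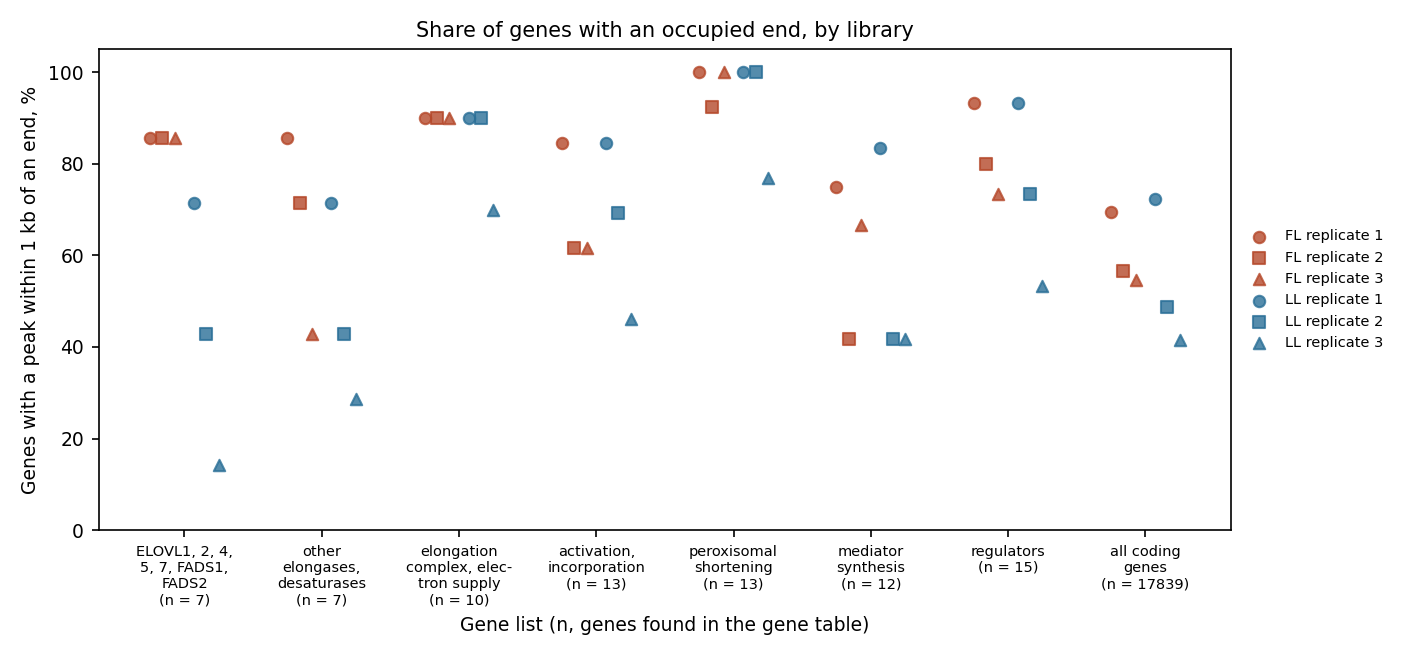
Share of genes with a peak within 1 kb of an end (y axis, percent) in each gene list (x axis), with a symbol per library (FL red, left of LL blue). For the 7 elongases and desaturases the 3 FL libraries stand at 85.7% and the LL libraries at 71.4%, 42.9% and 14.3%; for all coding genes the FL libraries stand at 69.5%, 56.6% and 54.7% and the LL libraries at 72.3%, 48.6% and 41.5%.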

How the data were processed

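Each of the 6 deposited peak lists holds a single library, and no pooled list was used. Per the submitters' processing notes, the tools were MACS3 3.0.0b1, bedtools 2.30.0, SAMtools, BWA, Trim Galore and FastQC, and the assembly was GRCg7b. How duplicates, multiply placed reads and the Tn5 offset were handled is not given in the sources used here. Per peak the authors deposited a score, the summit offset, −log10 q, −log10 p and a fold enrichment, which is a ratio to local background. The deposited lists end near a −log10 q of 2.

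The lists give no read totals. Each peak's pileup and background were found from fold = (pileup + 1) / (background + 1) and the Poisson −log10 p, within a relative tolerance of 1e-04, for 100% of peaks. The lowest background of a list, which stands for depth, was 8.26, 4.90 and 2.23 in the FL libraries and 8.10, 5.80 and 8.73 in the LL libraries. It mixes fragment number with fragment length.

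Regions, gene ends and windows were made with pandas 2.3.3 from the RefSeq table of GRCg7b. Peaks near a gene were compared with limma 3.58.1 in R 4.3.3 over all coding genes, with no term besides line, and single genes with an exact permutation test. The threshold was an adjusted p of 0.05. The planned promoter sequence and motif search needs sequence that was not used here.

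The genes, lists and tests were chosen with earlier results of these data known. Of 77 pathway genes, 70 matched the table by symbol. Named from each list were genes occupied in at least 2 more libraries of a line, up to 4 genes occupied in all 6 with the best poorest percentile, and genes with no end peak. For ELOVL2, the 3 genes nearest in percentile were named. Neighbouring genes of the 7 windows were named after their values were seen. Alternatives were a stricter q, equal list lengths, peaks of at least 178 bp, other distances, windows, filters, pseudocounts and normalization, and each library left out.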

Additional observations from a re-analysis of the deposited data

How the results depend on the processing

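The count of genes with an end occupied in all FL libraries and no LL library was 1 (ELOVL2). It was 0 at a −log10 q of at least 5, 0 with lists of equal length and 0 with only peaks of at least 178 bp. Of all coding genes, 32, 136 and 10 had the pattern under these settings. The count for the 7 genes ran from 1 to 3 with a library left out. It was 3 (ELOVL2, ELOVL4 and ELOVL7) without the first LL library, where 920 coding genes had the pattern. Without both libraries of replicate 1 it was 3 too, where 973 coding genes had the pattern. Regions with that pattern numbered 0 of 80 at the stricter q and 0 of 85 with the longer peaks. They ran from 1 to 4 with a library left out (4 of 75 without the first LL library). Without both replicate 1 libraries they numbered 4 of 48. With lists of equal length the 1 region of 35 was at the ELOVL7 end. Regions called in LL alone, 0 of 98 in the main count, numbered 2 of 35 with lists of equal length (near ELOVL5 and at TIE1). They numbered 0 to 3 with a library left out (3 of 92 without the first FL library). Without both replicate 1 libraries they numbered 3 of 48. The share of all regions with these patterns was not counted under these settings, so the region counts stand without a comparison. Peaks per 1000 over the 7 windows differed by -0.161 (FL minus LL), by 0.0313 with windows of 20 kb, and by -0.238 to -0.0542 with a library left out. The difference in the share of occupied ends stayed between 28.6 and 57.1 points under all settings. Genes called by limma numbered 0 in the main fit and with any library left out, 3 higher and 1 lower with lists of equal length, and 2 higher and 2 lower without both replicate 1 libraries. The log2 difference in peak density became positive for ELOVL2 at the stricter q (0.025), with windows of 20 kb (0.044) and 100 kb (0.22) and with quantile normalization (0.0092); for ELOVL1 at the stricter q (0.14) and with lists of equal length (0.048); for FADS1 with lists of equal length (0.056) and with longer peaks (0.021); for ELOVL5 (0.16) and ELOVL7 (0.0037) with longer peaks; and for ELOVL7 with windows of 20 kb (0.00045) and without both replicate 1 libraries (0.035). With a library left out it ran from -0.43 to 0.16 for ELOVL2, from -0.55 to 0.049 for ELOVL5 (-0.556 without both replicate 1 libraries) and from -0.53 to 0.12 for ELOVL7. Nothing in the labels says that replicate numbers pair birds. Deviations of same-numbered libraries had correlations of 0.548, 0.136 and -0.025, and those of differently numbered libraries ran from -0.464 to 0.380. With 3 libraries per line these values cannot tell whether the numbers pair birds. With the replicate block, limma called 0 genes higher and 0 lower, and 993 had an unadjusted p under 0.05. The settings by summit and without both replicate 1 libraries were chosen after seeing the data. The planned count at the transcription start alone was not run, since the gene table has no strand. The cause of these changes was not tested. Peaks under the threshold of a list were not measured, which limits every absence of a peak, in the first LL library with the longest list too. The lists also differed in median fold, which was 3.60, 3.56 and 5.18 in the FL libraries and 4.35, 3.63 and 3.06 in the LL libraries.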
